A study of Mus musculus with 6 samples.

Results

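Absorption of dietary fat by enterocytes rests on a chain of transporters, enzymes and carriers, and 38 genes of this chain, from lipid uptake to chylomicron export, are described here in control small intestinal organoids. They were taken from a list of gene names, with no threshold on a measured value, and all 38 had a row among the 21255 genes of the deposited table. Organoids are cultures of small intestinal crypts (jejunal ones, by the study's methods) in Matrigel, made from mice that are C/EBPα Flox/Flox. Donors of the C/EBPα KO group also carry VillinCreERT2, in which the villin promoter drives an inducible Cre recombinase in intestinal epithelium, and donors of the control group do not. The sample labels call the controls wildtype, and by the labels every culture of both groups had 400 nM 4-hydroxytamoxifen (4-OHT) for 2 days, whereas the methods give a higher dose. The series holds 3 libraries per group, and 3 value columns of the table carry names that fit the control samples S1 to S3. The names of the other 3 value columns fit no sample label, so organoids of the C/EBPα KO group are not analysed here, and nothing that follows is a difference between genotypes.

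Dietary triglycerides reach the enterocyte as fatty acids and monoacylglycerol, which are bound, activated to acyl-CoA, rebuilt into triglyceride at the endoplasmic reticulum, and then either stored in cytosolic droplets or loaded onto apolipoprotein B and secreted as chylomicrons. Sterols enter by a separate apical transporter, are esterified or pumped back into the lumen, and partly leave the cell on high density lipoprotein. The genes were grouped accordingly into uptake and sterol flux (9 genes), acyl activation (2), re-esterification (9), droplet (7), chylomicron assembly and export (10) and 1 regulator.

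Values are normalized counts, that is, read counts per gene from the quantification program RSEM, divided by 1 factor per library. Values of the libraries are given in the order S1, S2, S3 throughout. The reads recovered on genes numbered 36819530, 32898280 and 30405545. Cebpa, the gene targeted in the study, had 6446, 5829 and 6016 normalized counts. Library S1 stood apart from the others in Xist, the noncoding RNA of X inactivation, with 18.9, 15423 and 14769 normalized counts. The labels do not say which cultures or mice the libraries came from, so the spread between them may lie between donors or be technical. Xist is made in cells with an inactive X chromosome, as in females, and S1 had almost none.

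The 38 genes held 1.89% ± 0.0799 (SD, n = 3 control libraries) of all normalized counts. Chylomicron assembly and export genes accounted for 0.824% ± 0.0481 and uptake and sterol flux genes for 0.677% ± 0.0538. Most of the uptake and sterol flux share was Fabp1, which alone held 0.509% ± 0.0521 of all normalized counts. The remaining steps were smaller, with 0.131% ± 0.00456 for acyl activation, 0.114% ± 0.00312 for re-esterification and 0.113% ± 0.00230 for droplet genes. Within the 38 genes, Fabp1, Apoa4, Mttp, Apoa1 and Acsl5 together had 65.8% ± 0.94 (SD, n = 3) of the normalized counts. To compare genes, each normalized count was divided by the length of 1 transcript per gene, in units of 1000 bases. On this scale 22 of the 38 genes lay above 90% of the 13791 genes that had a mean of at least 10 normalized counts and a length, 4 lay above 99%, and 2, Abca1 and Abhd5, lay below the median.

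**Figure D1:**
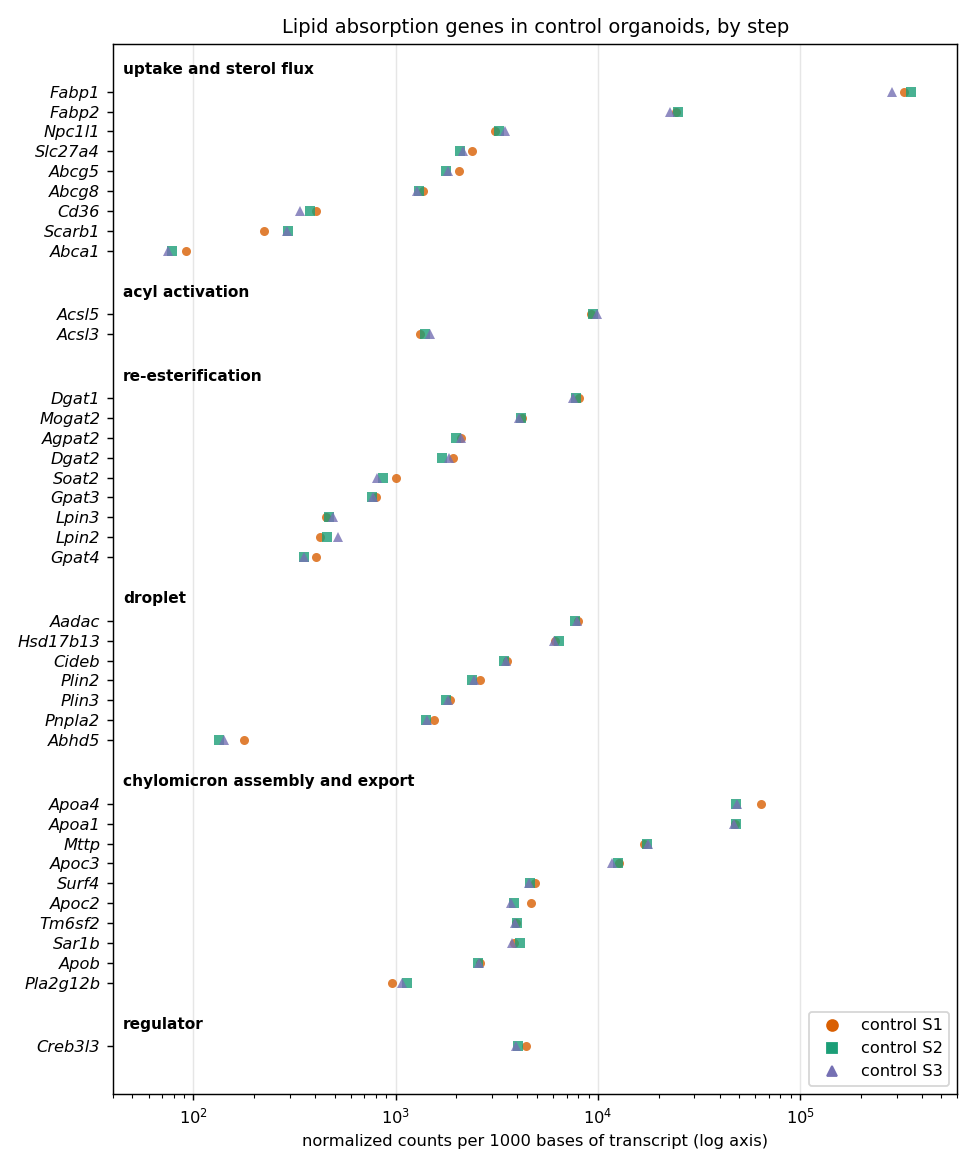
Normalized counts per 1000 bases of transcript (log axis) of the 38 lipid absorption genes in the 3 control libraries, 1 point per library, ordered by mean within each step. Fabp1 lies highest at a mean of 322082 and Abca1 lowest at 81.7, and the points of a gene are close together beside the distances between most genes.

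Among uptake genes, the cytosolic fatty acid binding proteins were far above the membrane transporters per 1000 bases. Without a length correction, Fabp2 had a mean of 23223 normalized counts and the sterol transporter Npc1l1 had 14611. Fabp1, the liver-type binding protein, had 181477, 194747 and 158110.0 normalized counts. It was thus highest in S2 and lowest in S3, with a coefficient of variation (CV, the SD as a share of the mean) of 10.4%. Per 1000 bases its level was 322082 ± 33542 (SD, n = 3), the highest of all genes with a length. Fabp2, the intestinal-type binding protein, had 23572, 24060.1 and 22037 normalized counts, and 24065 ± 1094 normalized counts per 1000 bases. The ratio of Fabp1 to Fabp2 per 1000 bases was 13.4 ± 0.805, and in each library it was above 12.5. Without a length correction it was 7.66. The 250 bases before the start of Fabp1 are shown because it is the gene with the highest level of the list. They lie at chr6:71199629-71199878 on the plus strand (RefSeq, GRCm38.p6), and capitals mark the letters TATAAA, the core of a TATA box, from 30 to 25 bases before the start.
Fabp1: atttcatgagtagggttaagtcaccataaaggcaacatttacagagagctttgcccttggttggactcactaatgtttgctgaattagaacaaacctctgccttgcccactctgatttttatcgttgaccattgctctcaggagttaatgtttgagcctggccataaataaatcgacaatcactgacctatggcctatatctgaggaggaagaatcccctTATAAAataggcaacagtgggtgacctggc

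The fatty acid translocase Cd36 and the fatty acid transport protein Slc27a4 (FATP4, which also has acyl-CoA synthetase activity) stood lower. Slc27a4 had 9639.9, 8459.5 and 8777 normalized counts. Cd36 had 1370.1, 1284 and 1146 normalized counts. Both were highest in S1, while the lowest library was S2 for Slc27a4 and S3 for Cd36. Per 1000 bases, Slc27a4 was at 2209.9 ± 151 and Cd36 at 373 ± 33.2 (SD, n = 3), a ratio of 5.95 ± 0.451. Fabp2 exceeded Cd36 by 64.8 ± 3.71 times on the same scale, and by 18.4 times without a length correction. Cd36 is also a gene of macrophages and adipocytes. Of the macrophage markers, Cd68 had 17, 10 and 20 reads, Csf1r had 10, 1 and 2, Adgre1 had 1 read in S3 alone and Ptprc had 3 reads in S1 alone. Of the adipocyte markers only Lep had a row, with 0 reads in each library. The summed level of these 5 markers was 28.4, 11.8 and 26.5 normalized counts.

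Npc1l1, the apical cholesterol transporter, was the highest of the sterol genes, with 13892, 14505 and 15436 normalized counts. This is 3271 ± 174 per 1000 bases (SD, n = 3), above 93.9% of genes. Scarb1, the high density lipoprotein receptor SR-BI, had 564, 744 and 729.6 normalized counts. It was low in S1, and the values in S2 and S3 were close. The ratio of Npc1l1 to Scarb1 was 12.3 ± 1.48 per 1000 bases, and it depends on the length taken for Scarb1, since it was 41.4 with all exons of each gene counted and 21.8 without a length correction. Abca1, which exports cholesterol to high density lipoprotein, was the lowest of the 38 genes per 1000 bases, at 81.7 ± 8.58 (SD, n = 3). It had 939, 806 and 772 normalized counts. Without a length correction Abhd5 was lowest, with a mean of 478 beside 839 for Abca1, so this rank depends on the length taken.

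Abcg5 and Abcg8 encode the subunits of the pump that returns sterols to the lumen. Abcg5 had 4831, 4189 and 4253 normalized counts. Abcg8 had 4991, 4777 and 4703 normalized counts. Both were highest in S1, Abcg5 by more than Abcg8. Abcg5 was at 1882 ± 151 and Abcg8 at 1316 ± 40.8 per 1000 bases, with a ratio of 1.43 ± 0.0730 (SD, n = 3), but without a length correction the order turned and the ratio was 0.916. The genes lie head to head, and in RefSeq their starts are separated by 109 bases. The 250 bases before the start of Abcg8 are therefore shown, since they hold this shared interval. They lie at chr17:84682871-84683120 on the plus strand (GRCm38.p6), the start of Abcg5 on the opposite strand is at position 84683011, and capitals mark TATAAA read on the Abcg5 strand. These letters lie 31 to 26 bases before the start of Abcg8 and farther from that of Abcg5.
Abcg8: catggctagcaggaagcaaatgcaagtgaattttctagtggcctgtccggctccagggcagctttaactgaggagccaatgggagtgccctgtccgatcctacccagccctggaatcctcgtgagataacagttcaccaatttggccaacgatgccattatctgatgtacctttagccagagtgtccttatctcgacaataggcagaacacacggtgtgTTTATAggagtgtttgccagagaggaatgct
Both genes share 82 annotated exon bases on opposite strands, and the sources used here do not state whether strand was used in counting.

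For acyl activation, Acsl5, the main long-chain acyl-CoA synthetase of enterocytes, exceeded Acsl3, a synthetase associated with lipid droplets. Acsl5 had 39121, 40161 and 41814 normalized counts. Acsl3 had 5196, 5522 and 5814 normalized counts. Both were lowest in S1 and highest in S3, by 1.07 and 1.12 times. The ratio of Acsl5 to Acsl3 per 1000 bases was 6.83 ± 0.164 (SD, n = 3) and was between 6.70 and 7.01 in each library. Acsl5 was at 9513 ± 320.2 and Acsl3 at 1395 ± 78.3 on this scale. Acsl3 shares 244 exon bases with Utp14b on the same strand, and Acsl5 404 with Zdhhc6 on the opposite strand.

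Re-esterification runs by the monoacylglycerol route (Mogat2, then a diacylglycerol acyltransferase) and by the glycerol phosphate route (Gpat3 or Gpat4, Agpat2, and a lipin). Dgat1 and Mogat2 had the highest levels per 1000 bases of the 9 genes. Dgat1, which adds the last acyl chain, had 15177, 14645 and 14306 normalized counts. Dgat2, an unrelated enzyme of the same reaction, had 4339, 3833 and 4173 normalized counts. The values of these genes did not overlap, and Dgat1 exceeded Dgat2 by 4.29 ± 0.251 times per 1000 bases (SD, n = 3). Mogat2, which acylates monoacylglycerol, had 7513, 7444 and 7289 normalized counts, with a CV of 1.55% beside 1.19% that counting alone gives. It was at 4166 ± 64.4 per 1000 bases, or 5.36 ± 0.120 times Gpat3, and 3.12 times without a length correction.

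On the glycerol phosphate route, Agpat2, which makes phosphatidic acid, was highest at 2064 ± 70.2 normalized counts per 1000 bases (SD, n = 3). It had 3138, 2952 and 3129 normalized counts, without a difference beyond counting error. Of the acyltransferases of its first step, Gpat3 was next at 778 ± 18.7 and Gpat4 was the lowest gene of this route at 369 ± 28.9. Without a length correction the lowest was the lipin gene Lpin3, with a mean of 1631 normalized counts beside 2036 for Gpat4. With all exons counted the lowest was Lpin2, with a mean of 2633 over 12233 exon bases, while Gpat4 has 6682 exon bases. Gpat3 had 2441, 2328 and 2369.5 normalized counts, and Gpat4 had 2219.8, 1946 and 1941 normalized counts. Gpat4 was high in S1, while the values of Gpat3 did not differ beyond counting error. The ratio of Gpat3 to Gpat4 was 2.11 ± 0.115 per 1000 bases and 1.17 without a length correction. Gpat3 shares 259 exon bases with Gm42987 on the same strand, between which reads could have been split, and 1052 with the antisense gene 4930458D05Rik. The phosphatidic acid phosphatases Lpin2 and Lpin3 could not be ordered, at 467 ± 48.7 and 470.1 ± 20.3 per 1000 bases, and their ranges over the 3 libraries overlapped. Without a length correction the mean ratio of Lpin2 to Lpin3 was 1.61, and with all exons counted it was 0.487. Lpin2 had 2392, 2574 and 2932 normalized counts, and was high in S3. Lpin3 had 1564, 1625 and 1704 normalized counts, without a difference beyond counting error. Soat2, which esterifies cholesterol for chylomicrons, had 2215, 1902 and 1789.5 normalized counts, and was high in S1. Its level was 892 ± 99.9 per 1000 bases.

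**Figure D2:**
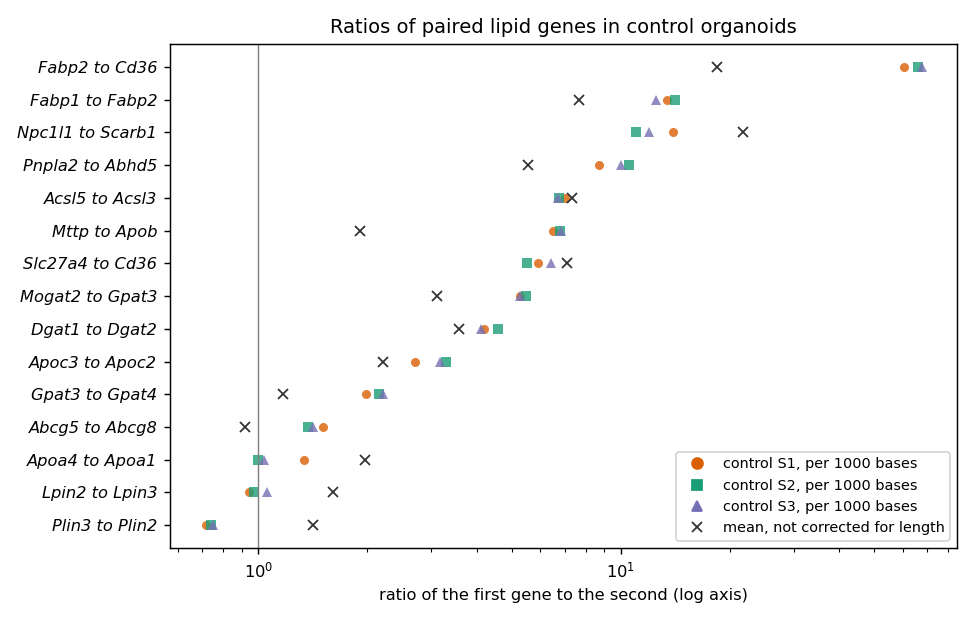
Ratio of the first gene to the second of each pair (log axis), per 1000 bases in each control library (coloured points) and as the mean without correction for length (crosses). The order of Plin3 and Plin2, of Abcg5 and Abcg8 and of Lpin2 and Lpin3 changes with the correction, while the other pairs keep their direction on average.

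Of the droplet genes, the esterase Aadac and the droplet-associated dehydrogenase Hsd17b13 were highest, at 7853 ± 119 and 6238 ± 189 normalized counts per 1000 bases (SD, n = 3). Aadac had 10552, 10238 and 10403 normalized counts, which did not differ beyond counting error. Hsd17b13 had 10535, 11021 and 10409 normalized counts. Cideb, which promotes lipidation and growth of lipid particles, had 4317, 4165 and 4244 normalized counts and shares 1136 exon bases with Nop9 on the opposite strand.

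The droplet coat proteins were at 2479 ± 110.1 per 1000 bases for Plin2 and 1819 ± 44.0 for Plin3. Plin2 had 4916, 4527 and 4595 normalized counts, and Plin3 had 6793, 6472 and 6629.8 normalized counts. Plin2 was thus higher per 1000 bases in each library, but Plin3 was higher without a length correction (1.42 times) and with all exons counted (1.32 times), so their order depends on the length taken. The triglyceride lipase Pnpla2 (ATGL) exceeded its coactivator Abhd5 (CGI-58) by 9.75 ± 0.919 times per 1000 bases, and by 5.56 times without a length correction. Pnpla2 had 2792, 2542 and 2561 normalized counts. Abhd5 had 561, 424 and 449 normalized counts, the lowest normalized counts of the list, and was high in S1. Abhd5 shares 950 exon bases with the antisense gene A730085K08Rik, and an effect of this overlap on its value was not tested.

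Apoa4 and Apoa1 led the chylomicron step per 1000 bases. Without a length correction Mttp, with a mean of 68876 normalized counts, stood above Apoa1, with 49499. Apoa1, the main protein of high density lipoprotein, had 49441, 50168 and 48888 normalized counts. The libraries were close to each other, with a CV of 1.30%. Apoa4, a chylomicron protein that rises after fat feeding, had 116007, 87916 and 88987 normalized counts. It was high in S1 and nearly level between S2 and S3, with a CV of 16.3%, the largest of the 38 genes. Both genes had similar levels per 1000 bases in S2, with a ratio of Apoa4 to Apoa1 of 0.999, and in S3, with a ratio of 1.04, but not in S1, with a ratio of 1.34. The mean of this ratio was 1.13 ± 0.185 (SD, n = 3), and 1.97 without a length correction. They lie in 1 cluster in the order Apoa1, Apoc3, Apoa4 and Apoa5. Apoc3, an inhibitor of lipoprotein clearance, had 6660.3, 6653 and 6214 normalized counts and was at 12375 ± 485 per 1000 bases, or 3.05 ± 0.304 times Apoc2 (1.77 times with all exons counted), while Apoa5 from the wider list had a mean of 3.86 ± 0.702 normalized counts (SD, n = 3). Apoa4 shares 632 exon bases with the antisense gene Gm10680.

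The bases before Apoa1 and Apoa4 are shown because these close neighbours had unlike spreads between the libraries. They lie at chr9:46228380-46228629 and chr9:46240594-46240843, both on the plus strand (RefSeq, GRCm38.p6). Neither holds TATAAA or TGATAA, so there are no capitals.
Apoa1: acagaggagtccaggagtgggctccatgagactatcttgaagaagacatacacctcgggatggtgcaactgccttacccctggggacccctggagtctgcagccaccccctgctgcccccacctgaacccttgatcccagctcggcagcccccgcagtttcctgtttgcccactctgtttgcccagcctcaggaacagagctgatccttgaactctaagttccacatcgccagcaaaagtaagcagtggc
Apoa4: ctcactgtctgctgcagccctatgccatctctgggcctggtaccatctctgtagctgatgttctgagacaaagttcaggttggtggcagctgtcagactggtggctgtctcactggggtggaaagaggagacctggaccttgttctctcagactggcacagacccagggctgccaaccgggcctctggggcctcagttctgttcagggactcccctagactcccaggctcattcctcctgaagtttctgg

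Apob, the structural protein of the chylomicron, had 36429.8, 35626 and 36097 normalized counts. Its CV of 1.12% was the smallest of the 38 genes. Mttp, the transfer protein that lipidates it, had 67209.8, 69058 and 70361 normalized counts, and was 6.72 ± 0.202 times as high as Apob per 1000 bases (SD, n = 3). This ratio was 1.91 without a length correction and 4.29 with all exons counted. Mttp shares 457 exon bases with Trmt10a on the opposite strand. The 250 bases before Apob, the gene with the smallest spread, lie at chr12:7977427-7977676 on the plus strand (RefSeq, GRCm38.p6), with TATAAA in capitals from 60 to 55 bases before the start.
Apob: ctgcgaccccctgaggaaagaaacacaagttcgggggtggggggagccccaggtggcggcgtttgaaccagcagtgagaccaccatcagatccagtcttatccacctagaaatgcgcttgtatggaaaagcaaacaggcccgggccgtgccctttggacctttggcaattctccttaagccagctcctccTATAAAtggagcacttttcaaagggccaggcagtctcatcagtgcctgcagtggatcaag

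Of the remaining export genes, 4 spanned a narrow range per 1000 bases. Without a length correction their means ran from 2969.6 (Apoc2) to 15374 (Surf4) normalized counts. Surf4, a cargo receptor for lipoproteins in the endoplasmic reticulum, was at 4686 ± 179 normalized counts per 1000 bases (SD, n = 3), and Sar1b, the GTPase of the vesicle coat that carries chylomicrons, at 3906 ± 206. Apoc2, the activator of lipoprotein lipase, was at 4085 ± 514 and Tm6sf2, a factor in lipoprotein lipidation, at 3939 ± 62.3. Along the order Surf4, Apoc2, Tm6sf2 and Sar1b, the ranges of neighbours overlapped. Surf4 had 16048, 15111 and 14964 normalized counts and Sar1b had 4609, 4969.7 and 4495 normalized counts, so Surf4 was highest in S1 and Sar1b in S2. Tm6sf2 had 5589, 5673 and 5496 normalized counts, without a difference beyond counting error. Apoc2 had 3398, 2798 and 2712 normalized counts and was high in S1, but 646 of its exon bases are shared on the same strand with the read-through gene Gm44805, between which reads could have been split. Pla2g12b, a phospholipase family member without known catalytic activity that is needed for lipoprotein secretion, was lowest of this step at 1056 ± 87.5, with 1049, 1238 and 1167 normalized counts. Creb3l3, a transcription factor of the endoplasmic reticulum that regulates apolipoprotein genes, had 10107, 9255 and 9020.0 normalized counts, and was high in S1. Its level was 4124 ± 249 per 1000 bases. Over the 32 pairs of neighbours within steps, the ranges over the libraries were separate in 27 and overlapped in 5. The 5 were Lpin3 and Lpin2, Apoa4 and Apoa1, Surf4 and Apoc2, Apoc2 and Tm6sf2, and Tm6sf2 and Sar1b.

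To see which genes varied between the control libraries, the reads of each gene in S1, S2 and S3 were compared with those expected from the libraries' factors. This chi-square test compares these libraries, not conditions, and a call says that they differ by more than counting error. Of the 38 genes, 30 differed (adjusted p below 0.05), which is 78.9%. In the background, 40.9% of the 13803 genes tested differed, and 49.7% of the 8384 genes at or above the mean of Abhd5, the lowest listed gene. The test calls more genes at greater depth, and these shares were not tested against each other. The median CV was 4.91% over the 38 genes. From S2 and S3 alone it was 2.22%, with no such value over all genes given here to set beside it. With all 3 libraries it was 6.62% over all genes tested and 4.62% over the genes at or above the mean of Abhd5. By this test the Benjamini-Hochberg adjusted p was 3.23e-06 for Scarb1, 1.02e-04 for Abhd5 and 0.0313 for Apob, and the CV was 14.7%, 15.3% and 1.12% where counting alone gives 3.95%, 4.75% and 0.541%. Apob thus differed beyond counting error, with 1.02 times between its highest and lowest library. The 8 genes that did not differ beyond counting error were Mogat2, Gpat3, Agpat2, Lpin3, Plin3, Cideb, Aadac and Tm6sf2. Thus 4 of the 9 re-esterification genes, 3 of the 7 droplet genes and 1 of the 10 chylomicron genes were among them, and 0 of the 9 uptake and sterol flux genes. Acsl3, Acsl5 and Creb3l3 all differed. The steps also differ in read depth, and they were not compared at matched depth. When the libraries were scaled to the same total, Plin3, Agpat2 and Aadac also differed, for 33 of the 38 genes beside 41.3% of all genes tested.

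**Figure D3:**
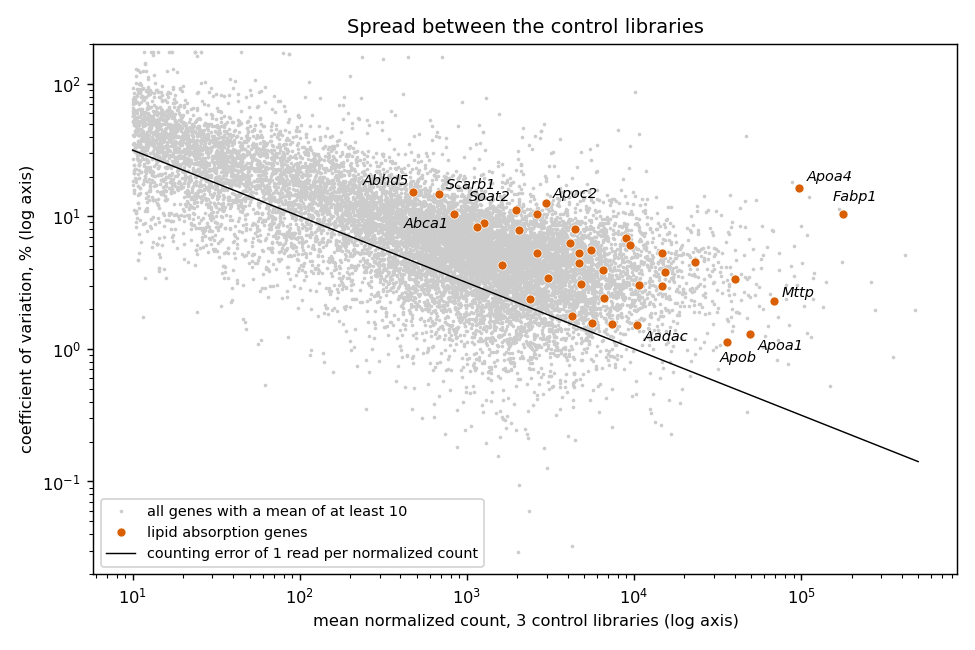
Coefficient of variation between the 3 control libraries against the mean normalized count (both log axes), for all 13803 genes tested (grey) and the 38 lipid absorption genes (orange), with the line that counting error alone would give at 1 read per normalized count. Apoa4 at 16.3% and Fabp1 at 10.4% lie far above this line, while Apob at 1.12% and Apoa1 at 1.30% lie closer to it at lower means.

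Much of this spread involved S1. The library with the highest value was S1 for 24 of the 38 genes, S2 for 8 and S3 for 6. Over the 13803 genes tested it was S1 for 5108, S2 for 4126 and S3 for 4569. The library with the lowest value was S1 for 8 of the 38 genes, S2 for 13 and S3 for 17, and over all genes tested S1 for 4944, S2 for 4560 and S3 for 4299. For 16 of the 24 (66.7%), the gap from S1 to the next library was larger than the gap between S2 and S3, as for 2897 of the 5108 (56.7%) over all genes tested. On the log2(normalized count + 1) scale, S1 minus the mean of S2 and S3 was 0.39 for Apoa4, 0.36 for Abhd5, 0.30 for Apoc2, 0.26 for Soat2 and 0.25 for Abca1. It was -0.38 for Scarb1, -0.20 for Lpin2 and -0.20 for Pla2g12b, which were lowest in S1. The median over the 38 genes was 0.05, beside 0.00 over all genes tested. Without S1, 12 of the 38 genes differed between S2 and S3 beyond counting error, while 16.8% of all genes tested did. Leaving out S2 left 25 genes, beside 29.8% of all genes tested, and leaving out S3 left 26, beside 29.2%. S1 was also the library with almost no Xist, and the part of the donor or its sex in these differences was not tested.

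**Figure D4:**
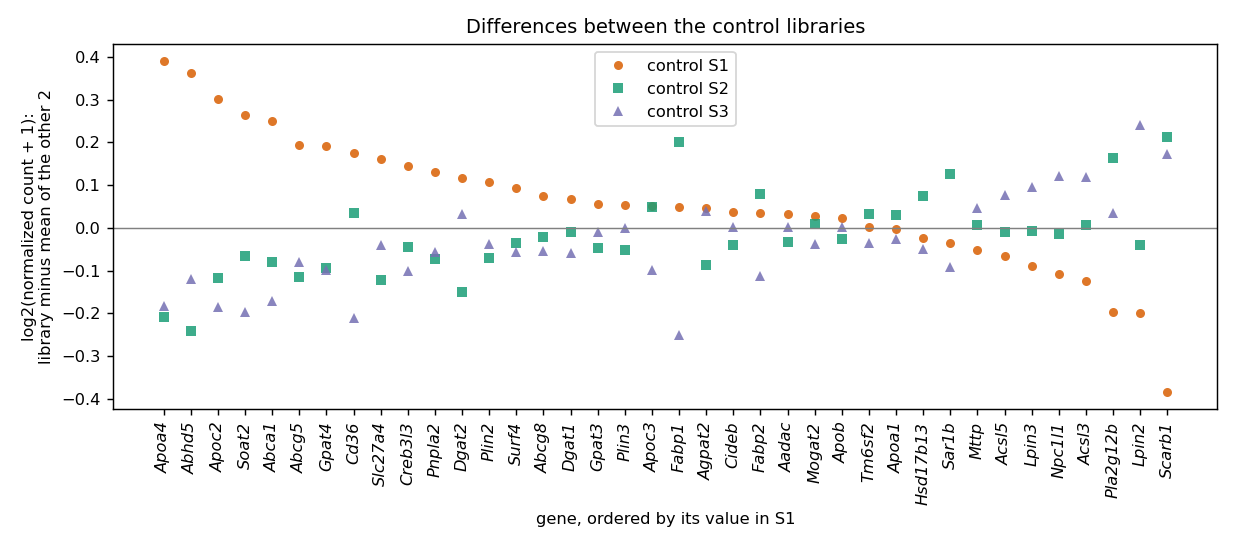
Difference in log2(normalized count + 1) of each control library from the mean of the other 2, for the 38 lipid absorption genes ordered by their value in S1. S1 spans 0.39 for Apoa4 to -0.38 for Scarb1, and S3 is lowest for Fabp1 while S2 is highest.

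The makeup of the cultures was read from marker genes in the same libraries. The 10 enterocyte markers summed to 578402, 561942 and 576255 normalized counts, and these include Apoa1 and Apoa4. The other 8 enterocyte markers summed to 412954, 423857 and 438379.9, so that without these listed genes S1 was lowest and S3 highest. Most of this sum was Sis (sucrase-isomaltase), with 252952, 262861 and 269555 normalized counts, whereas Lct, Treh and Slc5a1 were highest in S1. The 6 Paneth cell markers summed to 120104, 130010.0 and 148084, the 6 goblet cell markers to 67570.3, 74906 and 81474 and the 6 enteroendocrine markers to 10877, 13664 and 14987. These sums were lowest in S1 and highest in S3 as well, but this held for only 3 of the 6 Paneth cell genes (not Defa24, Ang4 and Itln1), 5 of the 6 goblet cell genes (not Muc2) and 3 of the 6 enteroendocrine genes (not Neurod1, Gcg and Pax4). The 6 stem cell markers summed to 27815, 25125 and 25432, and the 4 tuft cell markers with a row to 393, 433 and 474. Most of the stem cell sum was Olfm4 (17965, 15089.8 and 16032), while Lgr5 and Smoc2 were highest in S2 and Axin2 in S3. Of the tuft cell genes, Dclk1 and Pou2f3 were lowest in S1 and highest in S3, but Trpm5 was highest in S1 and Avil lowest in S2. Of the 5 mesenchymal markers with a row, Col1a2 and Acta2 were at 0 reads in each library, and the sum was 148, 127 and 193. Nearly all of this sum was Vim, with 145, 123 and 189.9 normalized counts. In bulk RNA, more cells of a type and more RNA per cell cannot be told apart, and the part of the cell makeup in the differences between libraries was not tested.

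Other genes of lipid handling were taken from a list of 58, of which 57 had a row and 49 a mean of at least 10 normalized counts. Of these 49, 27 differed between the control libraries beyond counting error. The share was 40.9% over all genes tested and 49.7% over those at or above the mean of Abhd5. Some of the 49 lay below that mean, and the test calls more genes at greater depth. The 4 with the highest means were P4hb, the disulfide isomerase subunit of the transfer protein complex, at 115106 ± 1413 normalized counts (SD, n = 3), the carboxylesterase Ces2e at 47284 ± 812, the transcription factor Hnf4a at 37127 ± 1142 and the acyl-CoA binding protein Dbi at 24530.0 ± 1343. The 8 genes with a row that did not reach a mean of 10 are named after their values were seen. They were the ileal bile acid binding protein Fabp6 at 2.81 ± 0.658, the apolipoprotein genes Apoa5 and Apoc1, the droplet genes Plin1, Plin4, Cidea and Fitm1, and Gpat2, which had 0 reads in each library.

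Upstream windows of 250 bases were taken from RefSeq (GRCm38.p6) for 30 of the 38 genes, as 35 windows, and were searched on both strands. The letters TATAAA, chosen after the sequences had been seen, were found in the windows of 6 genes (Abca1, Abcg5, Abcg8, Apob, Cideb and Fabp1), and in 12.4% of all 32851 windows. The windows of Abcg5 and Abcg8 overlap each other, and the letters marked before Abcg8 lie in both. The GATA-type letters TGATAA were found for Apoc2, Hsd17b13 and Lpin2, and in 7.94% of all windows. The HNF4-type letters CAAAGTCCA and the C/EBP-type letters TTGCGCAA were found in 0 of the 35 windows, and in 0.384% and 0.164% of all windows. This says only that these exact letters are not within these 250 bases.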

How the data were processed

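Polyadenylated RNA of organoids was sequenced by the authors in 3 control and 3 C/EBPα KO libraries (stranded kit, paired-end reads), mapped with Bowtie2 2.2.9 and quantified with RSEM 1.2.31, with DESeq2 1.14.1 for differential expression. The submitters' processing notes name mm9, and the annotation is not given in the sources used here. The authors deposited 1 table, whose values are a never negative signal, named normalized counts (21256 rows, 1 a repeated identifier that was left out). Divided by the value of 1 read, 100% of them came out whole (within 0.01) for the control samples. The recovered reads are thus counts from RSEM, which may have been rounded.

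Columns were matched to samples by name. Of 6 value columns, 3 match no label and were not used. Taking them as C/EBPα KO by elimination or by the level of Cebpa was not done, so the planned limma, edgeR and DESeq2 comparisons were not run.

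Symbols came from an annotation table (21213 of 21255 identifiers). Lengths are those of 1 transcript per gene in GENCODE M21 (GRCm38, another build than mm9), the APPRIS principal one and then the one with the longest coding part. Exons of 13 of the 38 genes overlap those of another gene. A mean of 10 normalized counts or more was required (13803 genes) for the chi-square test of recovered reads, with Benjamini-Hochberg adjustment over all of them, which was tested on simulated data. Counting error is that of reads, which without molecular identifiers are not independent molecules. The 38 genes and the lists were chosen with earlier results of these data known. Every listed gene is named, and of other lists the 4 highest, with exceptions stated. Alternatives were another scaling (equal totals or upper quartiles), other minimum means and pseudocounts, no length or all exons, and leaving out each library. Python 3.11.15 was used with scipy 1.17.1, pandas 2.3.3 and numpy 2.4.6.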

Additional observations from a re-analysis of the deposited data

How the results depend on the processing

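No value column was matched to a C/EBPα KO sample, so C/EBPα KO was not compared with control, paired or unpaired. The alternatives set out for that comparison were not run either. Scaling to equal totals or equal upper quartiles moved the mean levels of the 38 genes by -0.0379% to 0.0440%. Such a scaling keeps the mean over the same libraries nearly fixed, so a small shift was given in advance. Leaving out 1 library moved them by -9.41% to 8.48%. The share of all normalized counts on the 38 genes was then 1.85% to 1.93%.

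Leaving out 1 library gave a median CV of the 38 genes from 2.22% (without S1) to 4.92%, each over the libraries left. No such CV is given for all genes. Beyond counting error were then 12 (without S1) to 26 of the 38 genes, and 16.8% to 29.8% of all genes tested. The share of all genes was 26.5% without a minimum mean, where more genes with few reads are tested. The number of listed genes beyond counting error was 33 after scaling to the same total (Plin3, Agpat2 and Aadac in addition), beside 41.3% of all genes tested.

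Length corrections changed orders. Without a correction, Lpin2 stood at 1.61 times Lpin3, Plin3 at 1.42 times Plin2 and Abcg5 at 0.916 times Abcg8. With all exons counted, chosen after seeing the data, Plin3 stood at 1.32 times Plin2. The number of separate neighbours within steps was 28 without a correction, 29 with all exons and from 27 to 29 without 1 library. The lowest value of the 38 genes in any library is 390 reads (Abhd5). The 8 low genes of the wider list had too few reads for the test.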
